A study of Homo sapiens with 2 samples.

Results

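The proteasome was described at the mRNA level by 42 genes whose symbols name a subunit, activator, inhibitor or assembly chaperone (PSMA, PSMB, PSMC, PSMD, PSME, PSMF and PSMG followed by a number), out of 19775 genes measured. Together they had 81 of the 54675 probe sets, counting those that name only that gene. RefSeq lists 48 protein-coding genes with such symbols. The 6 others were not analysed here, among them PSMA6 and PSME2, whose probe sets also name another gene. The samples were FaDu cells, an established pharyngeal squamous carcinoma line. They held GLUT4 or the control vector stably after lentiviral infection and puromycin selection, with 1 Affymetrix Human Genome U133 Plus 2.0 array per group. GLUT4 is the insulin-responsive glucose transporter encoded by SLC2A4. Differences are log2 intensities of GLUT4 minus vector, taken at the probe set of a gene with the highest mean of both arrays. A single array per group allows neither a replicate check nor a test, and whatever else set the GLUT4 population apart from the vector population enters each difference. The threshold of 1.5-fold, a log2 difference of 0.58, is that of the methods.

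The proteasome degrades proteins marked with ubiquitin. Its 20S core is a barrel of alpha rings outside and beta rings inside, and the catalytic sites lie on the constitutive beta subunits PSMB5, PSMB6 and PSMB7. The 19S particle on the end of the barrel recognises, unfolds and feeds in the substrate. Interferons induce an alternative set of catalytic subunits, PSMB8, PSMB9 and PSMB10, which replace PSMB5, PSMB6 and PSMB7 in newly built cores to give the immunoproteasome, and they induce PSME1 and PSME2, which form the PA28 activator. The immunoproteasome is known for producing peptides that fit class I antigen presentation, and white blood cells carry it without stimulation.

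Both arrays carried epithelial transcripts. The 5 measured markers of 8 on the list for squamous cells read between 556 and 13093 on the GLUT4 array and between 516 and 11921 on the vector array, all above 39.6, the median of all probe sets. They moved apart: KRT14, a keratin of basal cells, was 2.03-fold higher with GLUT4 (log2 difference 1.02) and CDH1, the epithelial cadherin, 1.45-fold lower (-0.54). Of 8 leukocyte markers, PTPRC, CD3E, MS4A1, LYZ and TYROBP lay below that median on both arrays, and the summed intensity of the list was 499.7 on the GLUT4 array and 595 on the vector array. The summed intensity of 6 fibroblast markers was 1459 on the GLUT4 array and 834 on the vector array, mainly through DCN, at 1050.1 and 482, and LUM, at 79.9 and 38.5. SLC2A4 read 32.6 on the GLUT4 array and 28.3 on the vector array, below that median on both, and whether its probe set detects the introduced sequence was not determined. The signal at the 3′ end over that at the 5′ end of control transcripts was 0.16 and 0.38 (log2, GAPDH and ACTB) on the GLUT4 array and 0.13 and 0.31 on the vector array.

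The 4 measured genes of the immunoproteasome and of PA28, which leave out the PA28 chain PSME2, read lower with GLUT4, while the constitutive subunits did not move together in either direction. PSMB9, the inducible subunit that takes the place of PSMB6, had an intensity of 719 in GLUT4-overexpressing cells, against 1203 in vector control cells, 1.67-fold lower (log2 difference -0.74). It was the single proteasome gene past 1.5-fold at its brightest probe set. No other of the 42 genes passed the threshold in either direction, whereas 1.55% of all genes were past it on the lower side and 1.84% on the higher side. Among the 3589 genes at least as bright as the dimmest constitutive subunit, 0.919% were past it on the lower side. PSMB9 is among the genes that the authors listed as regulated by TRIM24 in a pathway analysis of the same pair of arrays, so that list gives its direction no independent support. Counted from the most lowered, it stood at rank 152 of 19775 genes.

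PSMB10, the inducible counterpart of PSMB7, read 386 in GLUT4-overexpressing cells and 483 in vector control cells, a log2 difference of -0.33. PSMB8, the counterpart of PSMB5, read 1383 with GLUT4 and 1658 with the vector (-0.26). PSME1, the alpha chain of PA28, read 2931 with GLUT4 and 3511 with the vector (-0.26). These 3 genes stayed within 1.5-fold, at 1.25-fold, 1.20-fold and 1.20-fold lower, and 7.57%, 12.0% and 12.1% of all genes had a more negative difference. The median of the 4 genes was -0.29, beside -0.02 for all genes and 0.00 for the 27 constitutive subunits. All 4 lay below 0, as did 52.2% of all genes. All 4 also lay below PSMD11, the lowest constitutive subunit at -0.17, as did 22.3% of all genes. With the probe sets of each gene averaged, the lowest constitutive subunit came to -0.37, and of the 4 only PSMB9 lay below it.

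**Figure D1:**
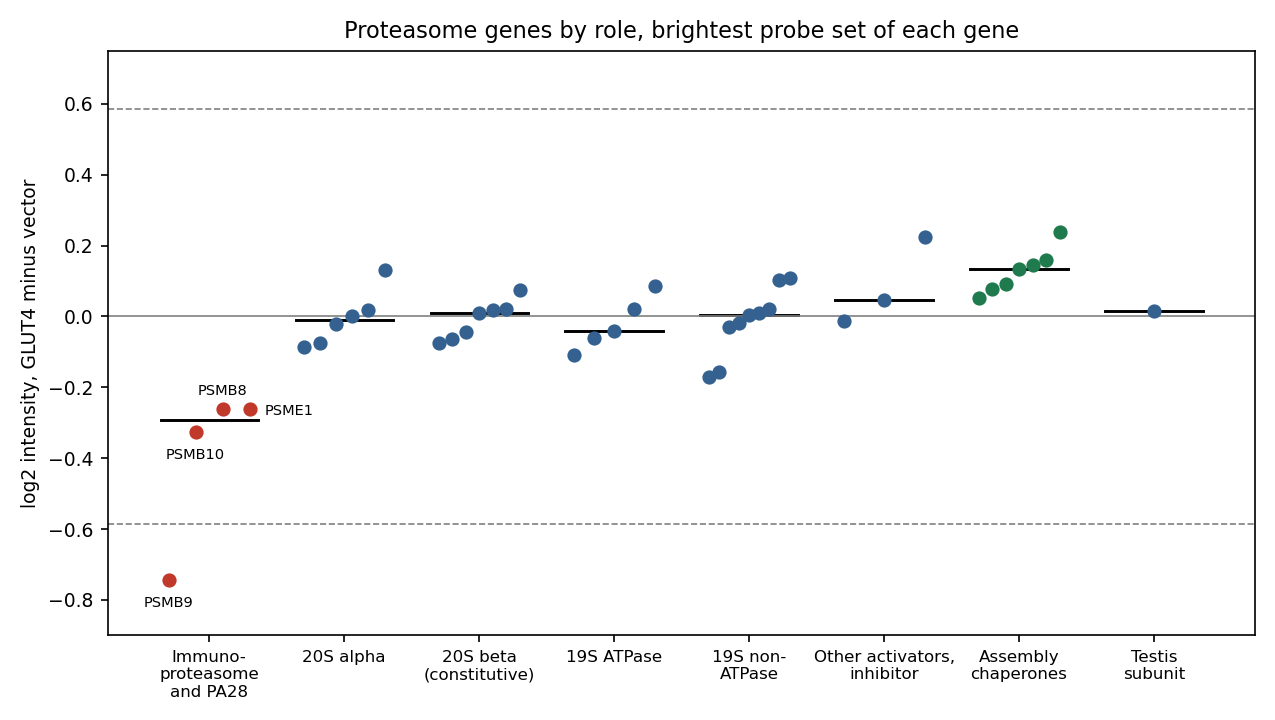
Each point is 1 proteasome gene at its brightest probe set, with the log2 intensity on the GLUT4 array minus that on the vector array on the vertical axis, grouped by role; black bars are group medians and dashed lines mark 1.5-fold. At these probe sets, the 4 genes of the immunoproteasome and PA28 (red) lie below every constitutive subunit, and PSMB9 at -0.74 is the only point past a dashed line.

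Each of these 4 genes is read by 1 probe set, so none has a second reading on the arrays. The nearest measure of technical error was how far different probe sets part when they read 1 gene. Over the 10523 genes with several, the SD of a single probe set came to 0.20, and to 0.16 among the brightest of 3 equal classes of genes. The difference of PSMB9 was several times that SD. Those of PSMB8, PSMB10 and PSME1 exceeded it, PSMB8 and PSME1 by little. This SD does not cover variation between cultures.

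The inducible subunits can be set against the constitutive ones that they replace, by comparing differences between the arrays and not levels of different probe sets. PSMB5, which carries the chymotrypsin-like site, read 3544 with GLUT4 and 3733 with the vector (-0.07), so PSMB8 was lower by a further 0.19 on the log2 scale (-0.19). PSMB6, with the caspase-like site, read 5346 with GLUT4 and 5511 with the vector (-0.04), and the gap from PSMB9 was -0.70. PSMB7, with the trypsin-like site, read 6061 with GLUT4 and 5971 with the vector (0.02), and the gap from PSMB10 was -0.35. The inducible subunit was the lower one in all 3 pairs. This follows from its lying below the lowest constitutive subunit, as given above, and is no separate result. The pairs differed in size, from a change in the ratio of 1.14-fold for PSMB8 over PSMB5 to 1.62-fold for PSMB9 over PSMB6. Among the activators, PSME1 contrasted with PSME3, the nuclear PA28 gamma chain that interferons do not induce, which read 1077 with GLUT4 and 1044 with the vector (0.05).

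**Figure D2:**
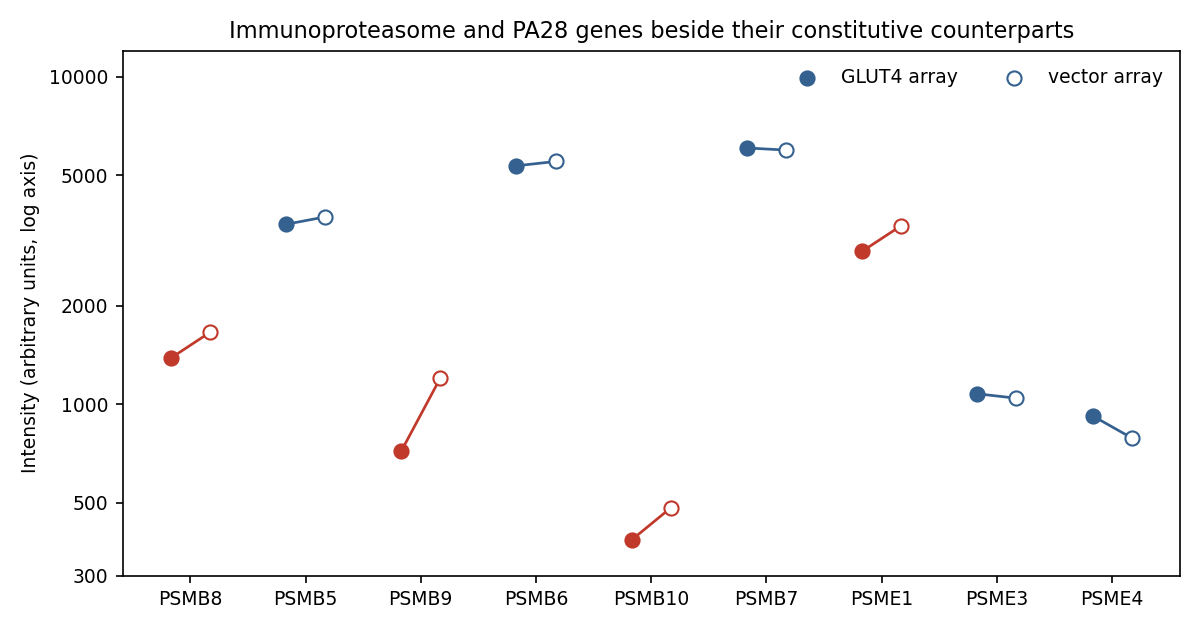
Intensity on a log axis for the inducible genes (red), with the constitutive catalytic subunits and the other activators PSME3 and PSME4 in blue. Filled points are the GLUT4 array and open points the vector array. Lines join the arrays of 1 gene, and heights of different genes are not comparable. The red lines all climb from the GLUT4 array to the vector array, most for PSMB9 at 719 with GLUT4 and 1203 with the vector, whereas PSMB5, PSMB6 and PSMB7 are nearly level.

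PSMB8 and PSMB9 lie next to the peptide transporter genes TAP2 and TAP1 in the major histocompatibility complex on chromosome 6, in the order TAP2, PSMB8, TAP1, PSMB9. TAP1 read 1169 with GLUT4 and 1454 with the vector (-0.32). TAP2 read 833 with GLUT4 and 1009 with the vector at its brightest probe set (-0.28), and its other probe sets lay at -0.10, -0.44 and 0.38, the last of them at 22.1 with GLUT4 and 16.9 with the vector and so below the median intensity. All 4 coding genes of this stretch thus read lower with GLUT4 at their brightest probe sets, PSMB9 most. PSMB8-AS1, an antisense transcript of the same stretch, had readings near the median intensity, at 58.4 and 34.3 with GLUT4 and 49.2 and 38.1 with the vector (0.25 and -0.15).

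PSMB9 and TAP1 are transcribed away from each other from start sites 488 bases apart, and their upstream regions together span that interval and overlap in its middle. These sequences, the 250 bases before each start in RefSeq (GRCh38.p14, written 5′ to 3′ on the strand of the gene), are shown with those of PSMB8, PSMB10 and PSME1 because these genes read lower together. Both strands were searched for the interferon-stimulated response element in the short form GAAANNGAA, the gamma-activated site TTCNNNGAA, the kappaB consensus, the antioxidant response element core TGACNNNGC and the CCAAT box CCAAT. Capitals mark any match.
PSMB9, chr6:32853942-32854191, plus strand: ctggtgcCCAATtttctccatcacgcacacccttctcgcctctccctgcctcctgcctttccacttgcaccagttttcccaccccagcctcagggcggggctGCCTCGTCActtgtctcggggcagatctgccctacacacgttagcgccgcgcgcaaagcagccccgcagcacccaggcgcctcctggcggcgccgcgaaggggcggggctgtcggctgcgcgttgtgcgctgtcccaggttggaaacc
TAP1, chr6:32853705-32853954, minus strand: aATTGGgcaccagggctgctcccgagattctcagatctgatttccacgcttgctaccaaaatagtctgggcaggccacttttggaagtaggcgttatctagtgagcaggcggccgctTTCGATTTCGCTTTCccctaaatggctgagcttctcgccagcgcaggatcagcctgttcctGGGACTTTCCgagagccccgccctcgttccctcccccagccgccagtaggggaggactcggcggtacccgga
PSMB8, chr6:32844048-32844297, minus strand: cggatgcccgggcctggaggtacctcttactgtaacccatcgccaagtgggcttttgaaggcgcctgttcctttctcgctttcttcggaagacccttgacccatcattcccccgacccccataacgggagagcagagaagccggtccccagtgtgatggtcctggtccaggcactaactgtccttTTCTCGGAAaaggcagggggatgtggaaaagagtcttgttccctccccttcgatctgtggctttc
PSMB10, chr16:67936851-67937100, minus strand: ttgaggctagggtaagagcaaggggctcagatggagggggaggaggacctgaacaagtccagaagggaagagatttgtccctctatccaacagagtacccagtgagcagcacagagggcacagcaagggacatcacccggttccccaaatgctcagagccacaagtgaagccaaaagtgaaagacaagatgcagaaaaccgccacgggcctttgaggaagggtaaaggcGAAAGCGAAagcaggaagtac
PSME1, chr14:24135944-24136193, plus strand: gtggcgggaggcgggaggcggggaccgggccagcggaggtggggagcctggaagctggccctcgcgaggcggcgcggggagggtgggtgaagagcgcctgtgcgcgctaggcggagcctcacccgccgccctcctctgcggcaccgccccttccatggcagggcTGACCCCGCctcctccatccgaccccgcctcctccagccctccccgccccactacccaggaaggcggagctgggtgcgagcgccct
The upstream region of TAP1 held overlapping matches to the interferon-stimulated response element from -133 to -119 and a kappaB match from -72 to -63, on the side of the interval away from PSMB9. The other of the 2 listed start sites of TAP1, whose window is not shown, had a gamma-activated site from -189 to -181. The 250 bases on the PSMB9 side held an antioxidant response core from -148 to -140 and a CCAAT box from -243 to -239, which is the CCAAT match of TAP1 read from the other strand. PSMB10 held a response element match from -21 to -13, as did 6.88% of the 35116 promoter windows of the table. A kappaB match was held by 5.21% and a CCAAT box by 32% of windows. The gamma-activated site of PSMB8, from -65 to -57, belonged to the second of its 2 listed start sites, which is the one shown, the window of the first holding no match, and 6.57% of windows held one. The match of PSME1 was an antioxidant response core, as in 10.9% of windows.

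Across the 36 members with an upstream region in the table, the interferon-related letters were not limited to the inducible genes. The response element was found in 1 of 4 immunoproteasome and PA28 genes (PSMB10), in 2 of 22 constitutive subunits (PSMA4 and PSMB4) and in 1 of 6 assembly chaperones (PSMG4). These counts depend on the window of 250 bases. The response element matches of TAP1 lie in the interval between TAP1 and PSMB9 but outside the PSMB9 window, so PSMB9 was not counted. The gamma-activated site was found in 7 of the 36: PSMB8, the constitutive subunits PSMA2, PSMB5, PSMC4 and PSMD3, and also PSMA8 and PSME3. Over the 27305 genes of the table the shares were 8.41% for the response element and 8.09% for the gamma-activated site. The antioxidant response core, the sequence read by NFE2L1 and NFE2L2, stood in 4 of 6 assembly chaperones, in 4 of 22 constitutive subunits and in 2 of 4 immunoproteasome and PA28 genes, beside 13.2% of the 27305 genes of the table. Such a match is a description of the letters in these windows and not a binding site.

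At their brightest probe sets, the constitutive core and the regulatory particle read at nearly the same level on both arrays. Of 27 constitutive subunits, 14 lay above 0 and 13 below, beside 47.8% and 52.2% of all genes. Of the 27, 21 were within 0.1 of 0, and the differences had an SD of 0.08. The same SD over the 3549 other genes at least as bright as the dimmest of these subunits was 0.22, and 68.0% of those genes had a difference no larger in size than 0.17, the largest among the subunits. With the probe sets of each subunit averaged, 11 lay above 0 and 16 below. Their median was then -0.04, their SD 0.11 and the lowest -0.37.

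Among the alpha subunits, which form the gated outer rings of the core, 3 of 6 lay above 0 and 3 below. PSMA2 had the highest difference, at 7397 with GLUT4 and 6750 with the vector (0.13), and PSMA3 the lowest, at 4716 with GLUT4 and 5008 with the vector (-0.09). PSMA7 read 8131 with GLUT4 and 8127 with the vector (0.00). The median of the 6 genes was -0.01. Among the 7 constitutive beta subunits, the structural subunit PSMB4 was highest, at 8439 with GLUT4 and 8008 with the vector (0.08), and the catalytic subunit PSMB5, given above, was lowest. The remaining structural subunits PSMB1, PSMB2 and PSMB3 lay at 0.01, -0.06 and 0.02.

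The ATPases of the 19S base, which unfold the substrate, had 2 of 5 members above 0. PSMC3 read 1330 with GLUT4 and 1253 with the vector (0.09), and PSMC2 read 5821 with GLUT4 and 6280 with the vector (-0.11). PSMC1, PSMC4 and PSMC6 lay between these. Of 9 non-ATPase subunits, 5 lay above 0. The ubiquitin receptor PSMD4 was highest, at 2863 with GLUT4 and 2656 with the vector (0.11), followed by PSMD6 (0.10). The lowest was PSMD11, a scaffold subunit of the lid, at 2287 with GLUT4 and 2575 with the vector (-0.17). Next came PSMD1, the large scaffold of the base (-0.16). The amount of PSMD11 is known to be rate-limiting for proteasome assembly in stem cells and worms. The deubiquitinase PSMD14, which removes ubiquitin chains before degradation, was nearly equal at 5216 with GLUT4 and 5184 with the vector (0.01).

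**Figure D3:**
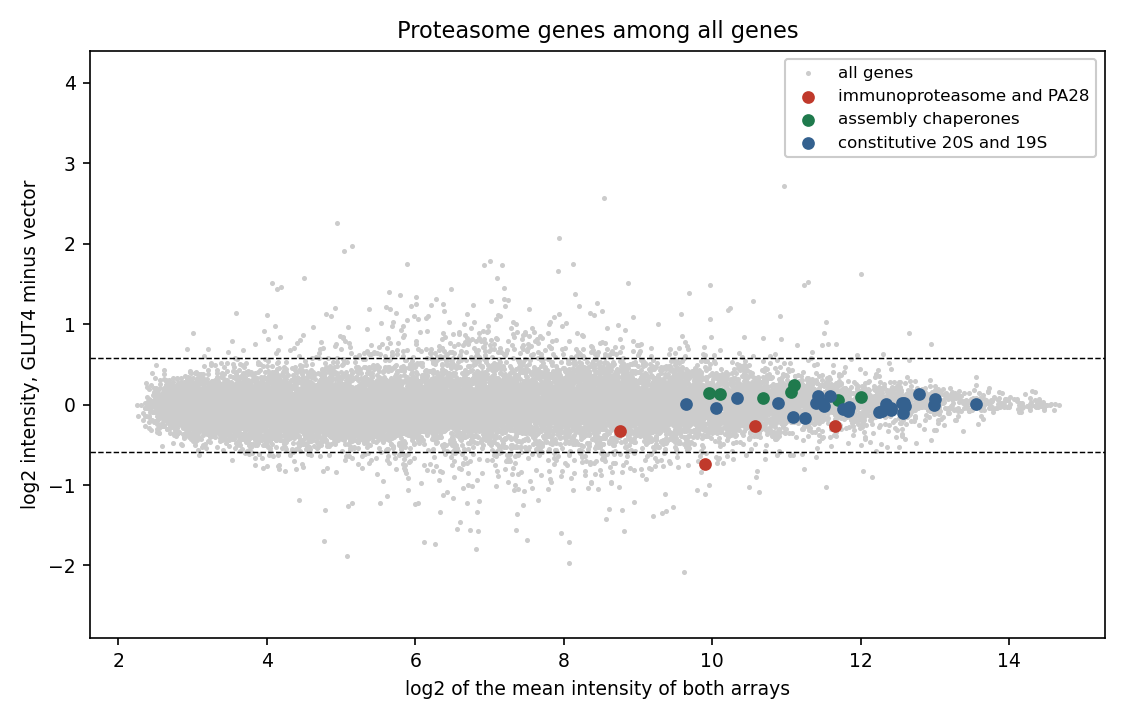
Vertical axis, log2 intensity of GLUT4 minus vector; horizontal axis, log2 mean intensity of both arrays. All 19775 genes are in grey, with proteasome genes coloured by group and dashed lines at 1.5-fold. The constitutive subunits (blue) lie close to 0 at the bright end, the assembly chaperones (green) just above 0, and the immunoproteasome and PA28 genes (red) below.

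The assembly chaperones all read slightly higher with GLUT4. These proteins help to build the particle and are not part of the finished one: PSMG1 to PSMG4 help to order the alpha ring, and PSMD5, PSMD9 and PSMD10 bind the ATPases of the base. All 7 lay above 0, as did 47.8% of all genes and 54.2% of those at least as bright as the dimmest constitutive subunit, and their median was 0.13. PSMG4 was highest, at 2372 with GLUT4 and 2012 with the vector (0.24), and PSMG1 next, at 2251 with GLUT4 and 2015 with the vector (0.16). PSMG2 was lowest, at 3360 with GLUT4 and 3239 with the vector (0.05). PSMG3, PSMD5, PSMD10 and PSMD9 lay at 0.14, 0.13, 0.09 and 0.08. None passed 1.5-fold, and of the 7 only PSMG4 exceeded the SD of a single probe set. Averaged over the probe sets of each gene, 6 of 7 remained above 0, with PSMG4 at -0.05.

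Of the other regulators, PSMF1, the inhibitor PI31, read 1315 with GLUT4 and 1327 with the vector (-0.01). PSME4, the activator PA200 that acts on the core without ubiquitin, read 923 with GLUT4 and 790 with the vector (0.22) at its brightest probe set. Its next probe set went the other way, at 347 with GLUT4 and 466 with the vector (-0.43), and its last, at 22.2 with GLUT4 and 22.6 with the vector, lay below the median intensity. PSME4 thus had no settled direction on these arrays. PSMA8, the alpha subunit of the testis, was at 7.89 with GLUT4 and 7.81 with the vector, and was the single member whose brightest probe set lay below the median intensity.

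The 22 members with several probe sets showed how far such readings can part. The gap between the brightest pair had an SD of 0.24 over these genes, beside 0.29 over all 10523 genes. The probe sets of PSMA1, PSMB1, PSMD10, PSME3 and PSMD6 lay within 0.12 of each other or less. PSMA5 had the widest gap. Its bright probe set read 2722 with GLUT4 and 2685 with the vector (0.02), and a dim one read 57.8 with GLUT4 and 97.4 with the vector (-0.75). This dim probe set and the PSMB9 probe set were the 2 of 81 past 1.5-fold, both on the lower side, where 1.22% of all probe sets lay. PSMD11 was lower on both of its probe sets, with the second at 359 with GLUT4 and 489 with the vector (-0.45). PSMD12, a lid subunit, was level at its bright probe set (-0.02) and lower at the other, at 726 with GLUT4 and 903 with the vector (-0.32). PSMA2 read higher at its bright probe set (0.13) and lower at the other, at 923 with GLUT4 and 1069 with the vector (-0.21). With all probe sets of a gene averaged, PSMA5 came to -0.37, and with probe sets of shared sequence left out, PSMD11 came to -0.45. Under each of these alternatives, PSMB9 alone of the immunoproteasome and PA28 genes lay below every constitutive subunit.

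**Figure D4:**
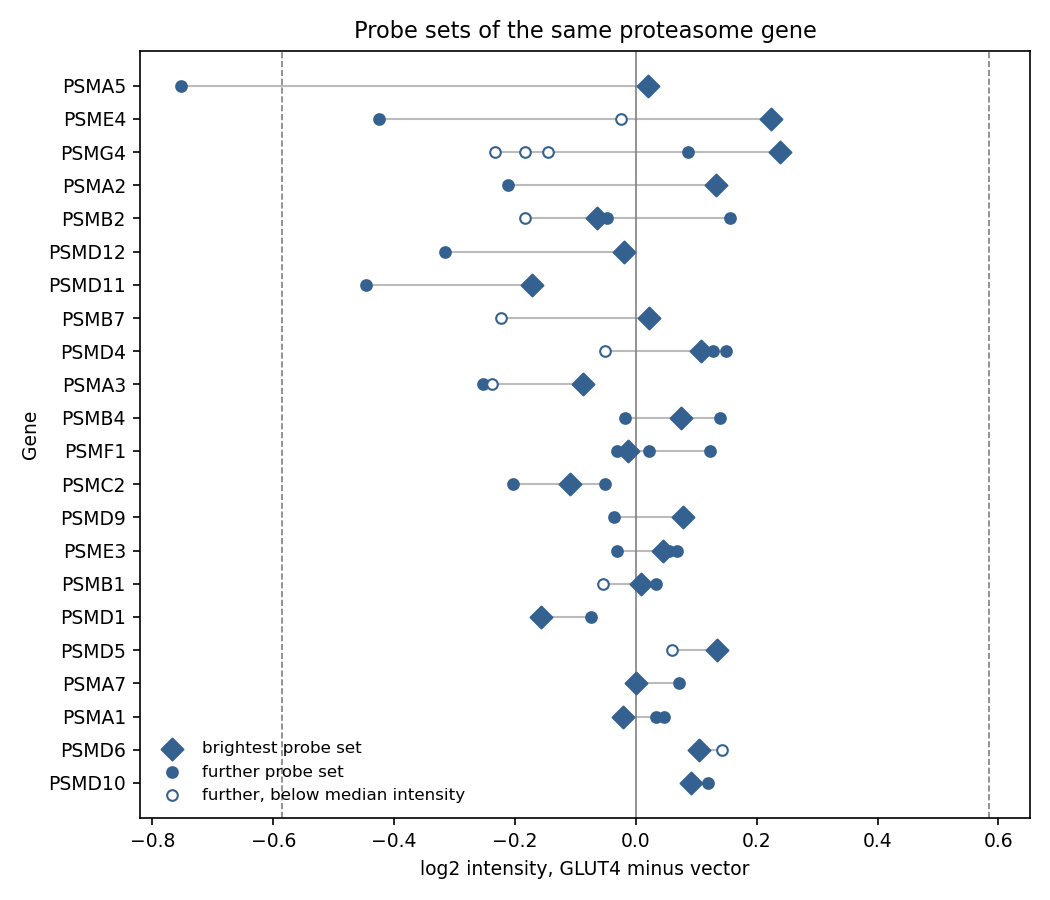
Each row is 1 of the 22 proteasome genes with several probe sets, and each mark is 1 probe set at its log2 intensity on the GLUT4 array minus that on the vector array; diamonds are the brightest probe set, circles further ones, open circles those below the median intensity, and dashed lines mark 1.5-fold. The genes are ordered by their spread, with PSMA5, whose dim probe set lies at -0.75, at the top.

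Most genes that work with the immunoproteasome in class I presentation also read lower. Of 10 measured, 9 lay below 0, beside 52.2% of all genes, and the median of the 10 was -0.30. The exception was HLA-E, a class I molecule (0.18). With the probe sets of each gene averaged, again 9 lay below 0 but the median came to -0.15. ERAP1, which trims peptides for loading, was the single one past 1.5-fold, at 715 with GLUT4 and 1113 with the vector (-0.64), and its 5 probe sets ranged from -0.64 to 0.15. TAPBP, which bridges the peptide transporter and class I molecules, lay at -0.36, and B2M, the light chain of class I molecules, at -0.04. Of the factors that control the immunoproteasome genes, 8 of 10 were measured and none passed 1.5-fold at its brightest probe set. IRF1, which interferon gamma induces, activates the PSMB9 and TAP1 promoters. It read 452 with GLUT4 and 496 with the vector (-0.14) at its brightest probe set. At the other it lay at -0.78, past 1.5-fold lower. NLRC5, the transactivator of class I genes, read 24.5 with GLUT4 and 30.6 with the vector (-0.32), below the median intensity. The interferon gamma receptor chains IFNGR1 and IFNGR2 lay at 0.10 and -0.16, and the median of the 8 genes was -0.10.

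NFE2L1, which raises the constitutive subunit genes when proteasome activity is short, read 604 with GLUT4 and 746 with the vector (-0.31), and its 3 probe sets ranged from -0.43 to -0.18. Its relative NFE2L2 lay at -0.08, and NGLY1, the enzyme that removes sugars from NFE2L1, at 0.24, with probe sets from -0.16 to 0.24. None of the 5 measured genes of 7 on that list passed 1.5-fold. Of 17 further proteins of the pathway, 16 were measured, none passed 1.5-fold, 10 lay above 0 and the median was 0.05. Single probe sets of 2 of these genes were past 1.5-fold, in opposite directions: the ubiquitin ligase UBE3C had one at 0.72 beside 0.01 at its brightest, and the proteasome adaptor ECPAS one at -0.60 beside 0.12, coming to -0.15 when averaged. POMP, the chaperone needed for maturation of both core types, read 9440 with GLUT4 and 9010 with the vector (0.07). The ubiquitin shuttle UBQLN2 was highest (0.28) and ZFAND5, a zinc finger protein that activates the proteasome, was lowest (-0.18), though at 0.01 when its probe sets were averaged.

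**Figure D5:**
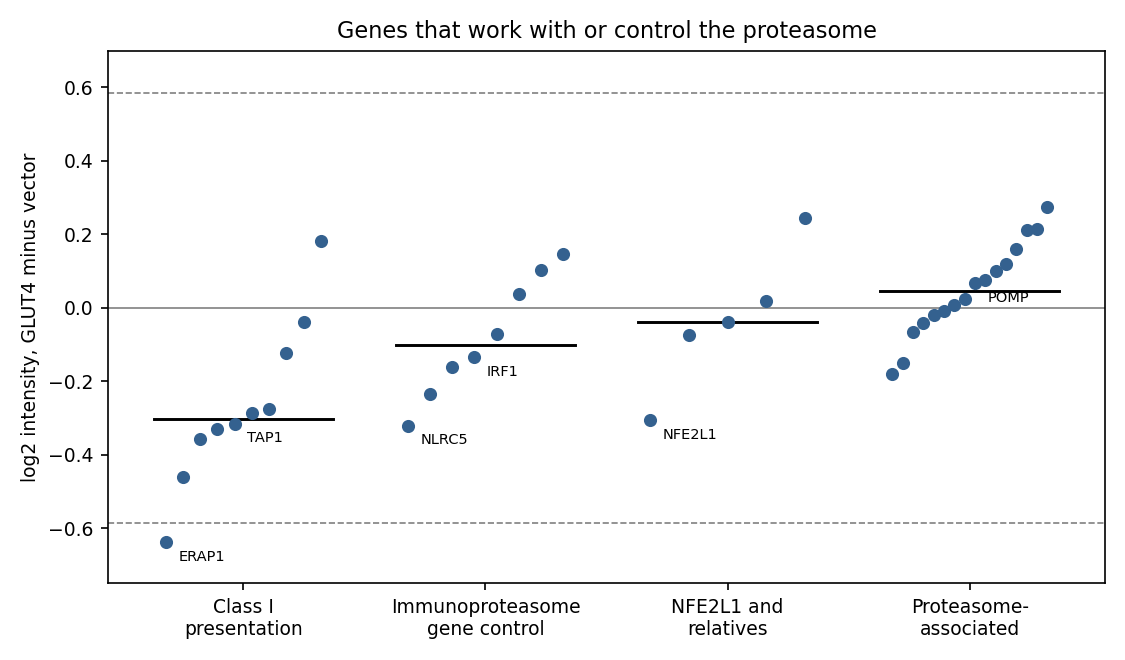
Each point is 1 gene at its brightest probe set, with the log2 intensity on the GLUT4 array minus that on the vector array on the vertical axis, in 4 lists of genes that work with or control the proteasome; black bars are list medians and dashed lines mark 1.5-fold. The class I presentation list sits lowest with a median of -0.30 and ERAP1 past the dashed line, while the proteasome-associated list has a median of 0.05.

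Both cultures were FaDu cells, and their labels name no other cell type. In RNA from whole cultures, a smaller share of cells in some state and less RNA per cell cannot be told apart. Leukocytes carry the immunoproteasome. Their 8 markers went both ways, with 4 above 0, 4 below and a median of 0.05, or -0.09 with probe sets averaged. The 3 above the median intensity were LCP1, at 238 with GLUT4 and 333 with the vector (-0.48), CORO1A (-0.14) and CD53 (0.19). Of the 5 markers below it, PTPRC lay at -0.03, CD3E at -0.20, MS4A1 at 0.14, LYZ at 0.15 and TYROBP at 0.29. Fibroblast markers moved the other way from the immunoproteasome genes. These markers are given as transcripts read in FaDu cultures. Whether they are related to the differences of PSMB8, PSMB9, PSMB10 and PSME1 was not tested.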

How the data were processed

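RNA of FaDu cells was hybridised to 1 array per group. The methods give log2 normalization by the authors in GeneSpring; MAS5, with no version, stands in the submitters' processing notes. The values that the authors deposited are linear intensities, already scaled between the arrays, with medians of 39.1 (GLUT4) and 39.7 (vector) and a largest gap of 0.15 between sorted log2 values. None of the sources used here gives the order of these steps. No detection calls were used, so a reading near or below the median may hold little signal.

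Intensities were set to at least 1, turned to log2 and subtracted. Genes came from the platform annotation, using the 41097 probe sets that name 1 gene; 1801 name several and 11777 are unnamed here. The members and lists were chosen with earlier results of these data known, and differences serve as description. All members of the immunoproteasome list were named, and in other groups the highest, the lowest and those with a probe set past 1.5-fold. In the pathway lists, members past 1.5-fold and the factors IRF1, NLRC5 and NFE2L1 and the partners TAP1 and POMP were named; further genes of these lists and members with readings that part were picked with their values in view. Of 44 genes on these lists, 39 were measured. Precision is limited by the number of arrays. The procedure was tested on simulated data. Alternatives were equal medians, quantile normalization, a filter at the median intensity, loess (fraction 0.3), an added 32 units of intensity, leaving out probe sets ending in x_at or s_at, and averaging probe sets. Python 3.11.15 was used with pandas 2.3.3, numpy 2.4.6, matplotlib 3.10.9 and statsmodels 0.14.6.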

Additional observations from a re-analysis of the deposited data

How the results depend on the processing

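Under all 7 alternatives 1 proteasome gene, PSMB9, stayed past 1.5-fold lower and none passed it on the higher side, and the log2 difference of PSMB9 ranged from -0.77 to -0.72. The median of the immunoproteasome and PA28 genes ranged from -0.33 to -0.27, and its gap from the constitutive median from -0.29 to -0.26. ERAP1 turned to 0.032 without probe sets of shared sequence and fell within 1.5-fold at -0.33 when probe sets were averaged. PSMG4 and PSME4 came to -0.05 and -0.08 when averaged, IRF1 to -0.46, and PSMA2 to -0.21 without probe sets of shared sequence, where PSMB8 had no probe set left. The median of the class I presentation genes came to -0.15 when averaged, against -0.30. In these cases the cause was not tested. Of all genes, 364 were past 1.5-fold higher and 306 lower, against 205 and 168 with the offset of 32 and 268 and 186 with averaged probe sets. No paired analysis was possible because each group had 1 array.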
